A study of Mus musculus with 8 samples.

Results

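The Meis, Pbx and Pknox genes encode homeodomain proteins of the TALE class, which bind DNA together with Hox proteins. Of the 9 genes of these 3 families in the mm9 annotation, 7 are described here, namely Meis1, Meis2, Meis3, Pbx2, Pbx3, Pknox1 and Pknox2, out of 26212 annotated genes in all. They were taken as a list of genes of these families, with earlier results of these data known. The list leaves out the other Pbx genes of the annotation, which were not analysed here. Trimethylation of histone H3 on lysine 4 (H3K4me3) was mapped by ChIP-Seq in wild-type (wt) mouse embryonic stem cells (mESCs) of the line TC-1, in mESCs of the line 3.2N that lack menin, the product of Men1, and in pancreatic islet-like endocrine cells (PILECs) differentiated in culture from each of these lines. Both lines have the 129S6/SvEvTac background, each genotype is 1 line, and every kind of cell was represented by 1 H3K4me3 library beside 1 input library, which makes 8 libraries. No condition was replicated.

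As background, H3K4me3 marks nucleosomes around active and poised transcriptional start sites (TSSs), and menin is a subunit of the MLL1 and MLL2 methyltransferase complexes that deposit it. Hox genes and Meis1 are well known targets of MLL and menin in leukaemia cells. Meis and Pknox proteins pair with Pbx proteins, Pbx proteins pair with Hox proteins, and Meis proteins can also bind DNA beside some Hox proteins without a Pbx partner.

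Deposited values are positions of single reads with a unique location, called tags. The H3K4me3 libraries of wt and menin-null mESCs held 2432377 and 3517028 tags, and those of wt and menin-null PILECs 18773635 and 17682677. Counts are given as tags and as RPM, tags per 1000000 tags of the library. A ratio of 2 libraries carries the exact (Clopper-Pearson) 95% interval of its 2 counts, and a gene was called higher or lower where the ratio was at least 2-fold and the interval excluded no change. These intervals cover counting error only and compare libraries, so no p-value is given. Men1 exons 3 to 8 held 17 and 22 input tags in wt mESCs and wt PILECs and 0 in both menin-null libraries, where a count of 0 allows up to 3. Summed H3K4me3 at the starts of 6 embryonic stem cell markers was 237 RPM in wt mESCs and 289 RPM in menin-null mESCs against 36.9 and 38.5 RPM in wt and menin-null PILECs. At 10 islet genes the sums were 30.3 RPM in wt PILECs and 35.1 RPM in menin-null PILECs, below the 53.0 and 57.2 RPM of the mESCs, and Ins1 and Ins2, the insulin genes, held 4 and 17 tags in wt PILECs. From mESCs to PILECs 2 of the 10 were called lower in wt and 3 in menin-null cells, and 0 were called higher. Among all gene starts 11.1% were called lower and 4.70% higher in wt cells, and 15.6% and 3.58% in menin-null cells. Of the islet transcription factor genes, Pdx1 went from 7.40 to 1.07 RPM and Isl1 from 18.5 to 8.20 RPM in wt cells, while Neurod1 was at 6.99 and 7.24 RPM. The summed level at 7 fibroblast and mesenchyme genes was 67.0 and 77.9 RPM in wt and menin-null mESCs, and 91.4 and 78.3 RPM in wt and menin-null PILECs. Of these, 2 were called higher in PILECs than in mESCs in either genotype and 1 lower, with Col3a1 going from 0.41 to 6.13 RPM and Prrx1 from 2.06 to 12.8 RPM in wt cells. Thy1, the 1 called lower, went from 10.7 to 4.53 RPM in wt cells, and Twist1 was at 30.0 and 33.0 RPM. In menin-null against wt PILECs 0 of the 7 were called, 4 had an interval below 0 and 1 above. Among all gene starts 19.0% had an interval below 0 and 4.82% above, and 31.3% of those with at least 50 tags had one below. In bulk chromatin fewer cells that carry the mark and less mark per cell cannot be told apart, and the part of a differing mixture of cells in the results below was not tested.

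The stretches of mm9 sequence printed here are those that the results on Meis1 and Pbx3 turn on, each read along the strand of its gene with every CpG in capitals. The first lies just before the Meis1 start (chr11:18918962-18919211, minus strand, before the first exon), where PILECs of both genotypes held 143 tags each.
Meis1 promoter: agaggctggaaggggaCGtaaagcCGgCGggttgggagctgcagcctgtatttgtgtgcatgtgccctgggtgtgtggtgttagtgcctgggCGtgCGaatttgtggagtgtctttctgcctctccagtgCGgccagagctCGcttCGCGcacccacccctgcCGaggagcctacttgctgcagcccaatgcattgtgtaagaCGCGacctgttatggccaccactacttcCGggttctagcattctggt
The second is the most heavily marked exon-free 200 bp of wt PILECs beyond 1 kb into Meis1 (chr11:18915911-18916110, intronic, 2851 to 3050 bp after the start), with 95 tags in wt and 37 in menin-null PILECs.
Meis1 intron: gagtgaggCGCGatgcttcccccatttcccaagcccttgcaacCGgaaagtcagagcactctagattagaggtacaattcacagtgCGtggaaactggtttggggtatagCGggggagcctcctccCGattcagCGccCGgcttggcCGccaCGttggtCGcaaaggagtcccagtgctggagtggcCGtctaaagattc
The third lies just before the first annotated start of Pbx3 (chr2:34228661-34228910, minus strand), with 50 tags in wt and 21 in menin-null PILECs.
Pbx3 first start: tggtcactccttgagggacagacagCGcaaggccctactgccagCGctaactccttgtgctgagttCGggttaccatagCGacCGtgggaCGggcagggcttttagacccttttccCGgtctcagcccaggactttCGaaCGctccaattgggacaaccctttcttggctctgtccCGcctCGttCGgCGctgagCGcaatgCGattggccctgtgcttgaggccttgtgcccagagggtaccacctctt
The last stretch lies in an intronic region of Pbx3 far from its starts (chr2:34105301-34105500, 121810 to 122009 bp after the start used). It is the densest 200 bp of that region in wt PILECs, with 69 tags in wt and 29 in menin-null PILECs. This stretch and the Meis1 intron were chosen by their tags in wt PILECs. That choice favours wt, so the counts printed beside them are no test of genotype.
Pbx3 internal region: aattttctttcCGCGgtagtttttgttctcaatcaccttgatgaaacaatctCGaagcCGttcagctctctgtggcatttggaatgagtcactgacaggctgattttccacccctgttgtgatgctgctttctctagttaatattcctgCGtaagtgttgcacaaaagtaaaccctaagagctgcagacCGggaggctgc
The Meis1 promoter held 13 CpGs in 250 bp and the Meis1 intron 12 in 200 bp, and the Pbx3 stretches held 15 in 250 bp and 6 in 200 bp. In the 250 bp before the start used of each of the 7 genes, the median was 15 CpGs against 10 over 26206 gene promoters, with the extremes 3 at Meis2 and 34 at Pknox1. At Pbx3 and Pknox2 these 250 bp overlap an annotated exon of the gene itself, and they are counted as promoters all the same. The sequence TGACAG, bound by Meis and Pknox proteins, occurred on either strand in 0 of the 7 promoters and in 14.5% of all promoters, and TGATNNAT, bound by pairs of Pbx and Hox proteins, in 0 of 7 and 6.58%. The motifs were searched separately, since an occurrence of one can share only some letters with the other, and an empty window says nothing about the factor. TGACAG was present in the printed part of the Pbx3 internal region, with 1 match.

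The genes lie at chr11:18780433-18918961 (Meis1, minus strand), chr2:115688800-115891575 (Meis2, minus), chr7:16760729-16771853 (Meis3, plus), chr17:34728211-34734345 (Pbx2, plus), chr2:34026977-34228660 (Pbx3, minus), chr17:31701718-31744638 (Pknox1, plus) and chr9:36698570-36954899 (Pknox2, minus). To place the 7 genes, their H3K4me3 levels within 1 kb of the start were compared among themselves. For genes with several starts, the one with the highest RPM summed over all H3K4me3 libraries was used. That choice drew on the same values that are compared below. In mESCs the highest levels were at Pbx3, with 160 tags (65.8 RPM) in wt and 291 tags (82.7 RPM) in menin-null cells, and at Pknox1, with 98 tags (40.3 RPM) and 211 tags (60.0 RPM). Both lie above most genes, since 96.9% and 82.5% of all genes were lower in wt mESCs. The 3 Meis genes were the lowest in wt mESCs. Meis1, which encodes the best known Meis cofactor of Hoxa9, held 21 tags (8.63 RPM) in wt mESCs and 36 tags (10.2 RPM) in menin-null mESCs. Meis2 held 8 tags (3.29 RPM) and 14 tags (3.98 RPM), close to its input of 9 tags (2.12 RPM) and 7 tags (1.87 RPM). Meis3 held 19 tags (7.81 RPM) and 50 tags (14.2 RPM). Pbx2 lay between, with 44 tags (18.1 RPM) in wt and 78 tags (22.2 RPM) in menin-null mESCs, as did Pknox2 with 39 tags (16.0 RPM) and 69 tags (19.6 RPM), and these did not differ from each other beyond counting error. The order Pbx3, Pknox1 and Pbx2 was separated at each step in wt mESCs, with log2 ratios of neighbours of 0.71 (95% interval 0.34 to 1.09) and 1.16 (0.63 to 1.70), whereas Meis1 and Meis3 were not, at 0.14 (-0.82 to 1.12).

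**Figure D1:**
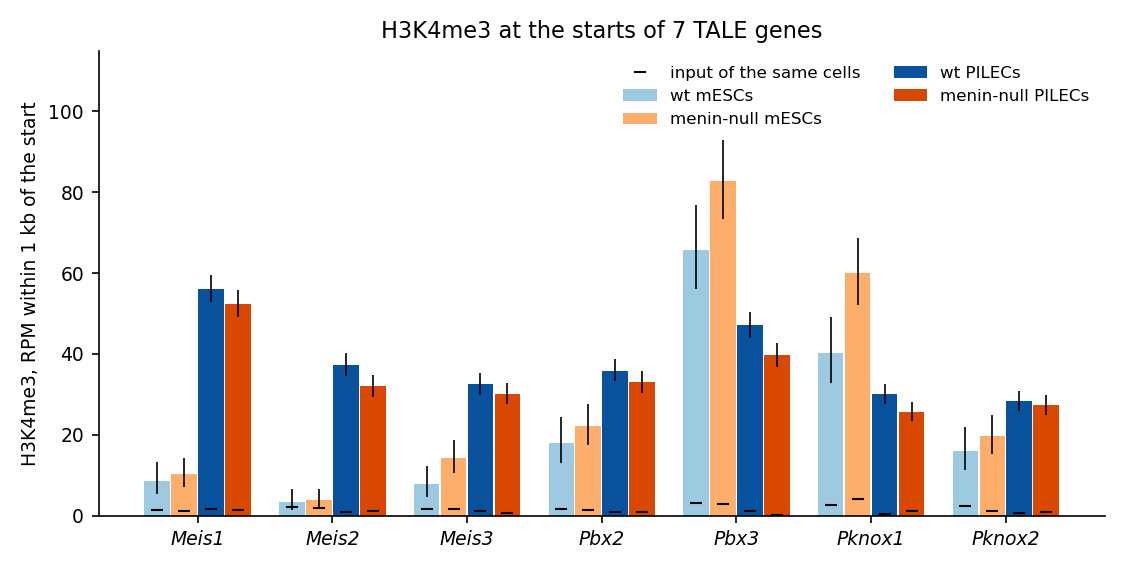
H3K4me3 within 1 kb of the start of each TALE gene in RPM (linear axis), 1 bar per library, with 95% Poisson intervals from the counts and a dash at the RPM of the matching input. Meis1 rises from 8.63 RPM in wt mESCs to 56.1 RPM in wt PILECs, whereas Pbx3 is highest in menin-null mESCs at 82.7 RPM.

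In PILECs the range narrowed. The lowest and highest of the 7 genes were 28.3 and 56.1 RPM in wt PILECs, against 3.29 and 65.8 RPM in wt mESCs, and all 7 lay above 68.3% of all genes. Meis1 was the highest in both genotypes, with 1054 tags (56.1 RPM) in wt and 926 tags (52.4 RPM) in menin-null PILECs. Pbx3 followed with 884 tags (47.1 RPM) and 703 tags (39.8 RPM). Meis2 held 701 tags (37.3 RPM) and 566 tags (32.0 RPM), and Pbx2 674 tags (35.9 RPM) and 585 tags (33.1 RPM). Meis3 held 610 tags (32.5 RPM) and 532 tags (30.1 RPM). Lowest were Pknox1, with 564 tags (30.0 RPM) and 454 tags (25.7 RPM), and Pknox2, with 532 tags (28.3 RPM) and 484 tags (27.4 RPM). From Meis2 down, no gene differed from its next neighbour in the order beyond counting error in either genotype. Input at the 7 starts was between 0.22 and 1.58 RPM in PILECs and between 1.07 and 4.01 RPM in mESCs, so all 7 genes stood far above input in PILECs, whereas Meis2 did not in mESCs at the start used. At its first annotated start wt and menin-null mESCs held 18 and 29 tags, beside 7 and 6 input tags.

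The question of how the mark changed with differentiation was addressed within each genotype. In wt cells the 3 Meis genes were higher in PILECs than in mESCs, by log2 ratios of 2.70 (95% interval 2.08 to 3.40) at Meis1, 3.51 (2.52 to 4.72) at Meis2 and 2.06 (1.40 to 2.80) at Meis3. All 3 stayed over 2-fold under every alternative run, with sizes that moved, to 2.21 at Meis2 with the 5'-most start and, with the input ratio divided out, to 2.03 at Meis1 and 2.94 at Meis3. These were 3 of the 7 genes called higher, and 0 were called lower, where 4.70% of all gene starts were called higher and 11.1% lower. In menin-null cells the same 3 genes were called higher, with 2.36 (1.88 to 2.88) at Meis1, 3.01 (2.25 to 3.89) at Meis2 and 1.08 (0.66 to 1.53) at Meis3, where the call was lost with 500 bp to each side (0.98), and Pbx3 and Pknox1 were called lower, at -1.06 (-1.26 to -0.86) and -1.22 (-1.46 to -0.98). Over all gene starts 3.58% were called higher and 15.6% lower in that comparison. The calls at Pbx3 and Pknox1 were lost when libraries were scaled by the tags near all starts, with -0.70 and -0.87. With the 5'-most start the menin-null ratio moved to 1.645 at Meis2 and to -2.36 at Pbx3. In wt cells Pbx3 and Pknox1 were also lower in PILECs, with smaller ratios of -0.48 (-0.73 to -0.23) and -0.42 (-0.74 to -0.10), and the value at Pknox1 was 0.21 with the input ratio divided out, -0.01 with 2 kb to each side and -1.14, a lower call, with 500 bp. Pbx2 and Pknox2 were higher in PILECs without reaching the 2-fold rule, at 0.99 (0.55 to 1.46) and 0.82 (0.35 to 1.33) in wt and at 0.58 (0.23 to 0.94) and 0.48 (0.11 to 0.87) in menin-null cells. The count called higher was 4 under 4 of the alternatives in wt cells and under 2 in menin-null cells, where Pbx2 was at 1.66 with the input ratio divided out, and Pknox2 at 1.14 with 2 kb to each side and at -0.71 with 500 bp. Depth and the share of tags near gene starts differed between the stages, since the share of tags within 1 kb of a start was 43.5% and 51.4% in wt and menin-null mESCs and 42.7% and 40.1% in wt and menin-null PILECs.

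The comparison of genotypes at the starts gave no call among the 7 genes in either stage. In mESCs all 7 log2 ratios of menin-null over wt lay above 0, from 0.25 at Meis1 to 0.86 at Meis3, with a median of 0.29, where the median of all gene starts with at least 10 tags was 0.22. Scaling by tags near all starts shifted every such ratio by -0.24. The interval lay above 0 for 3 of 7 genes, Meis3 (0.08 to 1.71), Pbx3 (0.05 to 0.62) and Pknox1 (0.22 to 0.94), against 16.3% of all gene starts and 28.8% of those with at least 50 tags in the libraries of both genotypes together. With the scaling by tags near all starts, 0 of the 7 had an interval above 0. None of the 7 passed 2-fold, where 0.829% of gene starts were called lower and 0.576% higher.

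In PILECs all 7 ratios lay below 0, between -0.24 at Pbx3 and -0.05 at Pknox2, with a median of -0.12. The median was -0.07 over gene starts with at least 10 tags and -0.09 over those with at least 50 tags. Of the 7 genes 3 had an interval below 0, Meis2 at -0.22 (-0.38 to -0.06), Pbx3 at -0.24 (-0.39 to -0.10) and Pknox1 at -0.23 (-0.41 to -0.05), against 19.0% of all gene starts and 31.3% of those with at least 50 tags. With the scaling by tags near all starts, which shifted every ratio by 0.09, 1 of the 7 had an interval below 0, that of Pbx3 (-0.15), and Pknox2 turned to 0.04. With 500 bp to each side Meis3 was at 0.07, and Pknox2 (-0.55) and Pknox1 (-0.51) were the lowest. Meis1 differed by -0.10 (-0.23 to 0.03) at the start used. At its annotated starts 36 and 244 bp further into the gene the ratios were -0.145 (-0.276 to -0.015) and -0.25 (-0.40 to -0.11). None of the 7 was called in PILECs, where 1.32% of all gene starts were called lower and 1.27% higher. Among Hox genes, the partners of these proteins, 23 of 39 were called lower in menin-null PILECs and 0 higher, with a median log2 ratio of -1.59, beside 0 of 7 cofactor genes in the same 2 libraries. In mESCs 0 of the 39 Hox genes were called lower and 1 higher. Of the 9 other TALE homeobox genes, Tgif1, Tgif2, Mkx and the Irx genes, 0 were called in either direction in PILECs (median -0.13), and of 8 genes known as targets of MLL or menin in other cells, such as Mef2c, Cdk6 and Cdkn1b, 0 were called (median -0.05).

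Next, the wider 5' end of each gene, from 1 kb before to 5 kb after the start, was compared. In PILECs 5 of the 7 genes had an interval below 0, against 24.2% of 21327 genes with at least 50 tags, and 0 of the 7 were called lower, against 0.675%. Input alone held 50 and 45 tags at Meis3 over this stretch in wt and menin-null PILECs. The rule of 50 tags in both libraries together thus also admits genes with little mark. Meis1 stood lowest of the 7. It held 2220 tags (118 RPM) in wt PILECs and 1430 tags (80.9 RPM) in menin-null PILECs, a log2 ratio of -0.55 (-0.65 to -0.45), and 4.49% of genes had a lower ratio. Pknox1 followed at -0.30 (-0.44 to -0.15), Meis2 at -0.28 (-0.42 to -0.15) and Pbx3 at -0.28 (-0.40 to -0.15). Pknox2 was at -0.17 (-0.29 to -0.06), whereas Meis3 at -0.11 (-0.27 to 0.06) and Pbx2 at -0.13 (-0.28 to 0.02) had intervals that included 0. In mESCs the ratios ran from -0.24 at Meis2 to 0.78 at Meis3, 3 of the 7 had an interval above 0, against 28.5% of genes, and 0 of 7 were called higher, against 0.432% of genes. Scaled by tags near all starts, 0 had an interval above 0 in mESCs and 4 had one below 0 in PILECs.

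The difference at Meis1 lay mainly after its start. This split was made after the values had been seen. Upstream of the start, wt and menin-null PILECs held 375 and 334 tags from 2 to 1 kb before it, and 601 and 605 tags in the last 1 kb before it, so the log2 ratio there was 0.10 (-0.07 to 0.26). In the first 1 kb of the gene the counts were 452 and 321, a ratio of -0.41 (-0.62 to -0.20). Beyond this point the genotypes separated. From 1 to 2 kb the counts were 228 and 76, with a ratio of -1.50 (-1.89 to -1.12). From 2 to 3 kb, where the wt mark had a second maximum and where most of the printed intron sequence lies, they were 450 and 206, with a ratio of -1.04 (-1.29 to -0.80). From 3 to 4 kb they were 257 and 125, from 4 to 5 kb 231 and 97, from 5 to 6 kb 113 and 39, and from 6 to 7 kb 45 and 12, so each of these bins was lower in menin-null PILECs with an interval below 0.

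**Figure D2:**
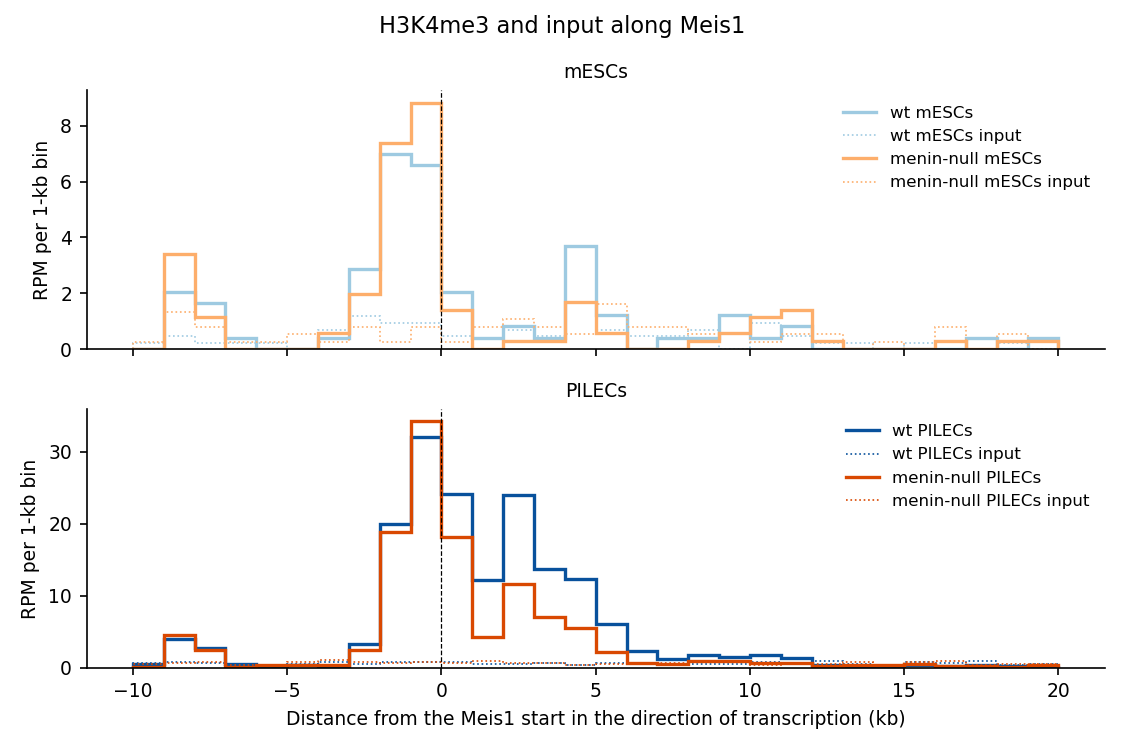
H3K4me3 (solid) and input (dotted) in RPM per 1-kb bin against the distance from the Meis1 start in kb, positive into the gene, for mESCs (top, smaller axis range) and PILECs (bottom, larger axis range), 1 line per library. In PILECs the lines of the genotypes run together before the start, with 601 and 605 tags in the last 1 kb, and part after it, with 228 and 76 tags from 1 to 2 kb.

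Over the whole stretch from 1 to 5 kb after the start, Meis1 held 62.1 RPM in wt PILECs (1166 tags) and 28.5 RPM in menin-null PILECs (504 tags). The log2 ratio of -1.12 (-1.28 to -0.97) met the rule for a lower call, which 1.95% of 13409 genes with at least 50 tags there met. From 5 to 10 kb the counts were 240 and 96 and the ratio was -1.24 (-1.59 to -0.89), called lower as well, where 0.967% of 12716 genes were. Genes with little mark in these stretches also passed the rule of 50 tags, so these are not shares of marked genes. Input over 1 to 5 kb was 41 tags in wt and 47 in menin-null PILECs, and within 50 kb of the start 1240 and 1153 tags. The share of Meis1 tags between 5 kb before and 10 kb after the start that fell beyond 1 kb into the gene was 48.3% (exact binomial 95% interval 46.5 to 50.1) in wt PILECs and 31.3% (29.2 to 33.4) in menin-null PILECs. In mESCs the stretch from 1 to 5 kb was nearly unmarked, with 13 tags in wt and 8 in menin-null cells, so whether the genotypes differed there was not detectable at this depth (log2 ratio -1.23, -2.71 to 0.15). The transcript Meis1-006 starts 6956 bp into the gene, and within 1 kb of it wt PILECs held 70 tags and menin-null PILECs 20, a ratio of -1.72 (-2.52 to -0.99). The annotated starts of 2 other genes, Gm16141 at 5141 bp and Gm16140 at 9828 bp after the Meis1 start, lie in the same stretch, and their tags cannot be told apart from those of Meis1.

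From 1 to 5 kb after the start, 5 of the 7 genes had intervals below 0 in PILECs, against 15.8% of genes tested, and Meis1 was the 1 called lower. Meis2 was at -0.43 (-0.69 to -0.18), Pknox1 at -0.43 (-0.69 to -0.18), Pbx3 at -0.37 (-0.62 to -0.12) and Pknox2 at -0.26 (-0.41 to -0.11). Meis3 and Pbx2 had little mark there, with 31 and 83 tags in wt PILECs beside 30 and 29 input tags. Both still passed the rule of 50 tags, so the 15.8% also covers genes with little mark. At Pknox2, the paralogue of Pknox1, the mark lay almost wholly after the start. Of its tags in wt PILECs 60.9% fell between 1 and 10 kb into the gene. The ratio was -0.04 (-0.23 to 0.14) in the first 1 kb and -0.10 (-0.29 to 0.09) from 1 to 2 kb. It was -0.48 (-0.79 to -0.18) from 2 to 3 kb and -0.79 (-1.41 to -0.19) from 3 to 4 kb. Input at Pknox2 over 1 to 5 kb was 30 tags in wt and 59 in menin-null PILECs. Within 500 bp of the start the Pknox2 ratio was -0.55. At Pknox1, whose product, also called Prep1, is a widely expressed partner of Pbx proteins, 258 and 162 tags lay from 1 to 2 kb in wt and menin-null PILECs, a ratio of -0.59 (-0.88 to -0.30), and -0.18 (-0.41 to 0.04) in the first 1 kb.

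**Figure D3:**
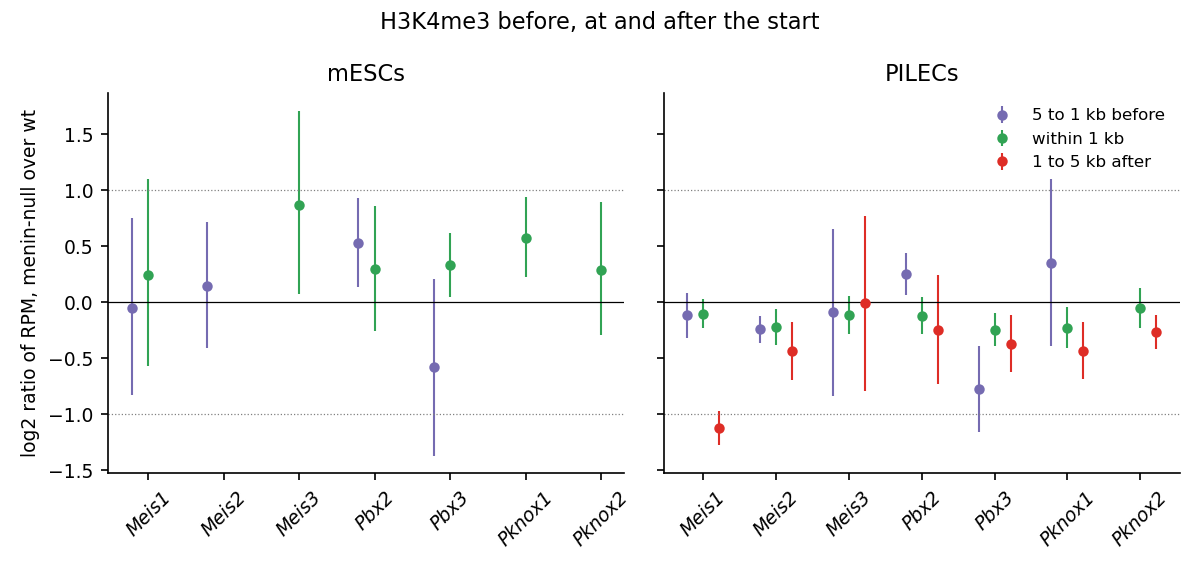
log2 ratio of RPM, menin-null over wt, at 3 places of each TALE gene (5 to 1 kb before the start, within 1 kb of it, and 1 to 5 kb after it) in mESCs (left) and PILECs (right), with exact 95% intervals; places with under 50 tags in both libraries together are left out, and dotted lines mark 2-fold. Meis1 from 1 to 5 kb in PILECs, at -1.12, is the point below the lower dotted line.

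Meis2, active in limb, heart and neural crest, lay in the longest stretch of mark. Windows of 200 bp with more tags than the Poisson background in both genotypes pooled were joined into enriched regions of at least 1000 bp. In PILECs 1 region spanned 13000 bp at Meis2, from -10534 to 2465 bp relative to the start used, and 99.9% of 13107 regions were shorter. The region at the Meis1 start spanned 8200 bp (99.6% shorter), that at the Pbx3 start 6600 bp (99.0% shorter), and those at Pknox1 and Pknox2 4200 bp each (94.5% shorter), whereas Meis3 and Pbx2 had regions of 2000 and 2400 bp at their starts. In mESCs, which were sequenced less deeply, regions at these loci were between 1200 and 2600 bp long, and none was found at the starts used of Meis2, Meis3 or Pknox2. Meis2 had 1 region in mESCs, from -4934 to -3735 bp relative to the start used.

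Of the 10 regions found at the 7 loci in PILECs, counting 5 kb before each gene, 1 was called lower in menin-null cells, against 1.29% of all regions, and of the 7 found in mESCs 0 were, against 0.295%. A second Meis1 region, 9561 to 11160 bp after the start, held 54 tags in wt and 26 in menin-null PILECs. Its ratio of -0.97 (-1.70 to -0.27) fell short of 2-fold, and it takes in the start of Gm16140. The region from -6007 to -3808 bp at Pbx2 is the peak at the 3' end of Notch4. Over the Meis2 region the counts were 2824 in wt and 2117 in menin-null PILECs, a ratio of -0.33 (-0.41 to -0.25). Within it the outer part, from 8 to 6 kb before the start used, went from 108 to 60 tags and from 121 to 66 tags in successive 1-kb bins, while the bin from 5 to 4 kb before was the highest with 436 and 364 tags. The annotated starts of 2 other genes, 2700033N17Rik at -4914 bp and G630016G05Rik at -5438 bp relative to the start used, lie inside the region, and their tags cannot be told apart from those of Meis2. At the first of the 15 annotated Meis2 starts, 3309 bp before the one used, the counts were 642 and 456 in PILECs, a ratio of -0.41 (-0.58 to -0.23), and 18 and 29 in mESCs, a ratio of 0.16 (-0.74 to 1.09). In mESCs of both genotypes the same bin, from 5 to 4 kb before the start used, was the highest, with 25 tags in wt and 48 in menin-null cells.

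**Figure D4:**
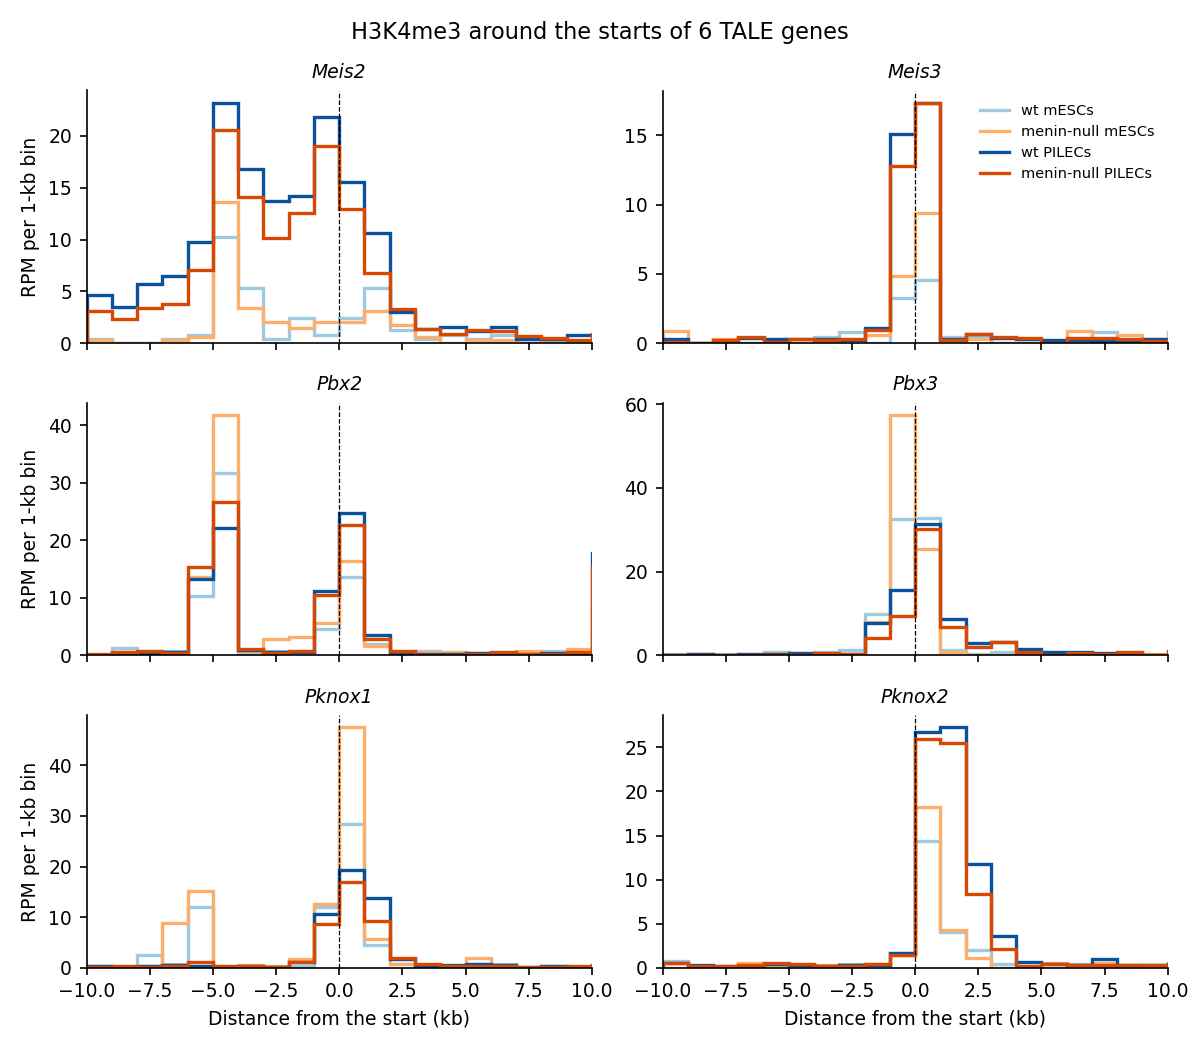
H3K4me3 in RPM per 1-kb bin against the distance from the start in kb, positive into the gene, for the other 6 TALE genes, 1 line per library; each panel has its own axis range. Meis2 lies in a 13000-bp region in PILECs that also holds the starts of 2 other genes, the peak between -6 and -4 kb at Pbx2 lies at the 3' end of the neighbouring gene Notch4, and Pknox1 has a peak from -6 to -5 kb in mESCs, at the lincRNA gene 4833413E03Rik, that reaches to -7 kb in menin-null mESCs and is at most 1.24 RPM in PILECs.

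Pbx3, the member with the most H3K4me3 in mESCs, differed between genotypes on the upstream side of the start used. Its first annotated start, that of Pbx3-007, lies 1350 bp before the start used, and was one of the alternatives set for the analysis. In PILECs the counts within 1 kb of it were 331 tags in wt and 164 in menin-null cells, a log2 ratio of -0.93 (-1.21 to -0.65). In mESCs they were 72 and 168, a ratio of 0.69 (0.28 to 1.11). The difference between the stages was -1.62 (95% interval from the 4 counts -2.10 to -1.14). It was -1.33 (-1.81 to -0.85) after the median of gene starts with at least 10 tags was subtracted in each stage. In the last 1 kb before the start used, wt and menin-null mESCs held 79 and 202 tags, and in the first 1 kb after it 80 and 89, so the ratio was 0.82 (0.44 to 1.22) on the one side and -0.38 (-0.83 to 0.08) on the other. In PILECs the same bins held 295 and 168 tags, at -0.73 (-1.01 to -0.45), and 588 and 535 tags, at -0.05 (-0.22 to 0.12). Only part of the bin next to the start used lies in the window of the first start. That bin also holds annotated Pbx3 starts at -130, -246 and -248 bp relative to the start used, so it is not all upstream of transcription. Within 1 kb of Pbx3-001, the start at -246 bp, the ratio was 0.34 (0.05 to 0.62) in mESCs. In PILECs it was -0.29 (-0.44 to -0.14), so both were near those at the start used. The bin that holds the first start itself, from 2 to 1 kb before the start used, had 24 tags in wt and 28 in menin-null mESCs, a ratio of -0.31 (-1.15 to 0.54), and 144 and 74 tags in PILECs, at -0.87 (-1.30 to -0.46), so the directions were not opposite there. The printed 250 bp before the first start held 7 tags in wt and 2 in menin-null mESCs. Input within 1 kb of the start used was 21 tags in wt and 4 in menin-null PILECs, and 15 in each at the first start.

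The region called lower at these loci was also in Pbx3. It spans 1200 bp (chr2:34104801-34106000, mm9) inside the gene, overlaps no annotated exon, and lies 121310 to 122509 bp after the start used. It held 229 tags in wt and 103 in menin-null PILECs, a ratio of -1.07 (-1.42 to -0.72). In mESCs it held 23 and 25 tags, a ratio of -0.41 (-1.29 to 0.47), and the difference between the stages, -0.65 (-1.54 to 0.23), did not pass counting error. Input over it was 11 and 12 tags in wt and menin-null PILECs and 3 tags in each mESC library. It held 32 CpGs, some of them in the Pbx3 internal sequence printed above.

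**Figure D5:**
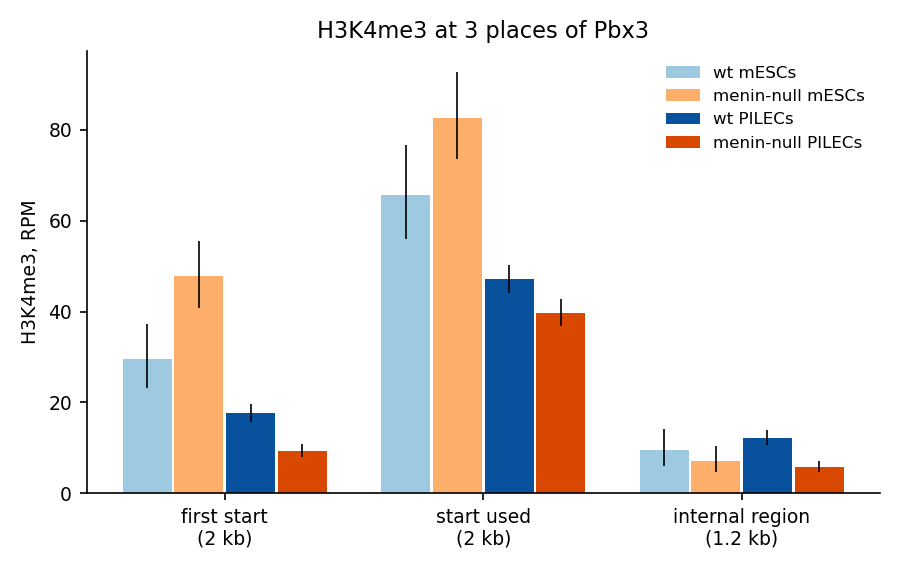
H3K4me3 in RPM at the first annotated start of Pbx3, at the start used and at the internal region (windows of 2, 2 and 1.2 kb), 1 bar per library with 95% Poisson intervals. At the first start menin-null mESCs (168 tags) lie above wt mESCs (72 tags) and menin-null PILECs (164 tags) below wt PILECs (331 tags).

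At 1 of the 7 genes, Pknox1, the ratio at the start used differed between the stages beyond counting error, both as measured and relative to all starts. This was true of 13.2% of 14713 gene starts with at least 10 tags in each library, so a count of 1 in 7 is near the background. Menin-null over wt was 0.57 (0.22 to 0.94) in mESCs and -0.23 in PILECs, a difference of -0.80 (-1.19 to -0.41), or -0.51 (-0.90 to -0.12) after the medians were subtracted. Over the 5' end the difference was -0.86 (-1.21 to -0.50), or -0.56 (-0.92 to -0.21), and 12.9% of 15954 gene 5' ends passed in this way. In mESCs the rise lay after the start, with 69 tags in wt and 167 in menin-null cells in the first 1 kb, and 29 and 44 tags in the 1 kb before it. From 6 to 5 kb before the start, a second peak, within the lincRNA gene 4833413E03Rik, held 29 tags (11.9 RPM) in wt and 53 tags (15.1 RPM) in menin-null mESCs, and 7 tags (0.37 RPM) and 22 tags (1.24 RPM) in wt and menin-null PILECs, beside 7 input tags in each PILEC library. The ratio in PILECs was 1.74 (0.46 to 3.21), on few tags. From 7 to 6 kb before the start, wt mESCs held 2 tags (0.82 RPM, beside 8 input tags) and menin-null mESCs 31 tags (8.81 RPM), a ratio of 3.42 (1.45 to 6.53) that rests on those 2 tags, while the ratio in the bin next to it was 0.34 (-0.34 to 1.04).

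At Meis3 and Pbx2 the intervals in PILECs included 0 both at the start and over the 5' end. Meis3, known from patterning of the hindbrain, had a narrow peak with 610 and 532 tags in wt and menin-null PILECs, a ratio of -0.11 (-0.28 to 0.06), and 19 and 50 tags in mESCs. Its difference between the stages, -0.98 (-1.76 to -0.19), no longer passed counting error after the medians were subtracted (-0.68, -1.46 to 0.10). At Pbx2, a widely expressed member that lies among other genes on chromosome 17, 674 and 585 tags gave a ratio of -0.12 (-0.28 to 0.04). The stretch 5 to 1 kb before it, which takes in part of a peak at the 3' end of Notch4, had 456 and 511 tags and a ratio of 0.25 (0.07 to 0.44).

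Finally, the genes whose levels over the 4 libraries were most like those of 2 members were taken from 14989 genes, by the distance of centred log2 RPM values over 4 libraries. The 2 members were those with the lowest and the highest ratio in PILECs with 1 kb to each side, an order that changed with 500 bp, where Pknox2 was lowest at -0.55 and Pbx3 was at -0.17. Pbx3 was nearest to Senp2 (distance 0.03), Jhdm1d (0.04) and Nxph3 (0.04). Pknox2 was nearest to Arl3, Gm9884 and Smcr7 (each 0.01). All 6 repeat the pattern of their member by construction, with Senp2 at 40.7, 52.9, 29.6 and 25.1 RPM and Arl3 at 29.6, 36.1, 52.0 and 49.8 RPM in wt mESCs, menin-null mESCs, wt PILECs and menin-null PILECs.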

How the data were processed

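H3K4me3 ChIP-Seq and input libraries, 8 in all, were analysed from the deposited tag positions. The authors sonicated chromatin to 250 bp on average, aligned 36-bp reads to mm9, and required 1 genomic location and no more than 2 mismatches, although 1.04% to 1.81% of tags listed more. The deposited values are unnormalized positions, and the alignment score deposited by the authors was not used.

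Tags were moved 125 bp from their 5' end, counted in windows, and divided by the total of the library. Starts came from an mm9 annotation (75530 distinct starts). Enriched regions joined 200-bp windows with a Poisson p of at most 1e-05 across gaps of at most 400 bp and had to span 1000 bp or more and hold 2 times the input density. Python 3.11.15, numpy 2.4.6, pandas 2.3.3, scipy 1.17.1 and matplotlib 3.10.9 were used, and the counting and region rules were tested on simulated data. Totals of 2432377 to 18773635 tags set the precision.

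The 7 genes, the gene lists and the tests were chosen with earlier results of these data known. The named genes are the 7 members, the 3 nearest genes of those with the lowest and the highest ratio in PILECs, and the lists counted beside them. The segments before and after the start, the Meis1 gene body and the first Pbx3 start as a result of its own were singled out after their values were seen. Marker lists of neural cells (sums of 117 and 115 RPM in wt and menin-null PILECs, 4 of 6 listed genes placed) and muscle (5.17 and 4.92 RPM) were also summed. In wt and menin-null mESCs the sums were 73.6 and 105 RPM for neural cells and 20.1 and 17.9 RPM for muscle. The alternatives changed repeated tags, tag position, scaling, window, start, input, mismatches and 1 added tag.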

Additional observations from a re-analysis of the deposited data

Results flagged for a closer look

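The difference between genotypes itself differed between mESCs and PILECs, beyond counting error and also relative to all gene starts, at 3 of 26 places. The longer 5' ends given below were also examined and are not among these 26. At the start of Pknox1 the difference of log2 ratios was -0.80 (95% interval -1.19 to -0.41), and over its 5' end it was -0.86 (-1.21 to -0.50), which shares tags with the first. At the first annotated start of Pbx3 it was -1.62 (-2.10 to -1.14), with menin-null over wt at 0.69 in mESCs and -0.93 in PILECs. The 1 kb next to the start used, part of which lies in that window, held 79 and 202 tags in mESCs, whereas the 1-kb bin that holds the first start had 24 and 28 tags, at -0.31 (-1.15 to 0.54). Further annotated Pbx3 starts lie in the 1 kb next to the start used. Of all gene starts with at least 10 tags in each library 13.2% passed the same rule, and of gene 5' ends 12.9%, so 1 of 7 genes at each of these is near the background. The longer 5' end, to 10 kb after the start, also passed at Pknox1 (-0.61, -0.96 to -0.26, after the medians) and at Pbx3 (-0.32, -0.61 to -0.02). Each rests on 1 library per condition, so the intervals hold counting error only.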

How the results depend on the processing

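Each condition had 1 library, so no library could be left out, and no paired analysis was possible because the groups share no second replicate. Of 382 alternative values, 348 stayed within the interval of the main value or within 1.5 times its count, and the calls between genotypes at the 7 starts stayed at 0 in both directions and both stages. The count of genes lower in wt PILECs than in wt mESCs went from 0 to 1 with 500 bp to each side. The count lower in menin-null PILECs than in menin-null mESCs went from 2 to 0 when the input ratio was divided out, with scaling by tags near all starts, and with 2 kb to each side. The count of 5' ends with an interval above 0 in mESCs went from 3 to 0 with scaling by tags near all starts, and the count below 0 in PILECs from 5 to 4. The count of genes higher in menin-null PILECs than in menin-null mESCs went from 3 to 2 with 500 bp, where Meis3 was at 0.98, and to 4 with the input ratio divided out, where Meis3 was at 1.82, and with 2 kb. Among ratios whose interval excluded 0, the sign turned at Pknox1 in wt PILECs over wt mESCs when the input ratio was divided out (0.21) and at Pknox2 in menin-null PILECs over menin-null mESCs with 500 bp (-0.71). Among those whose interval included 0, it turned at Meis3 in PILECs (0.07) with 500 bp, at Meis2 in mESCs (-0.38) with 2 kb, and with scaling by tags near all starts at Pknox2 in PILECs (0.04) and at the mESC 5' ends of Pbx2 (-0.02) and Pknox2 (-0.09). The ratio in the Meis1 gene body from 1 to 5 kb stayed between -1.12 and -1.02, and from 5 to 10 kb between -1.26 and -1.14, under 5 alternatives chosen after seeing the data. Causes of these changes were not tested. The mESC libraries, with 2432377 and 3517028 tags, limit every mESC value at the Meis genes. They also differed in repeated tag positions, 11.4% of H3K4me3 tags in wt and 4.17% in menin-null mESCs. In wt and menin-null PILECs these were 11.5% and 11.4%. Repeated tags were kept in the main counts, and the intervals treat them as separate tags.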
